A study of Mus musculus with 20 samples.

Results

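The genes described here encode parts of the red cell membrane skeleton and its anchors: Sptb (erythroid beta spectrin), Ank1 (ankyrin 1), Epb41 (protein 4.1), Epb42 (protein 4.2), Dmtn (dematin), Tmod1 (tropomodulin 1), Rhag (the Rh-associated glycoprotein) and Add1 (alpha adducin). The 8 genes were taken as a list of names by a rule that uses no measured value, although the list was drawn up with earlier results of these data known, and every intron of theirs in the deposited intron tables was kept. This gave 140 of the 68794 introns in the table of spliced and unspliced reads, and 69 of the 6537 introns in the table of splicing intermediates. Of the 140 introns, 117 lay between coding exons, 4 in a 5' UTR and 2 in a 3' UTR. The remaining 17 belonged to Epb41, whose tabulated transcript is annotated as noncoding.

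Murine erythroleukemia (MEL) cells, a single wild-type mouse line arrested as early red cell precursors, were sequenced as nascent RNA in long reads. One group was left uninduced and the other was grown with 2% DMSO for 5 days, which starts erythroid maturation. Each group had 4 samples, which are 2 biological replicates run on 2 PacBio instruments. RNA was taken from the chromatin fraction and depleted of polyadenylated and ribosomal RNA, so that reads come mostly from transcripts still attached to the gene. The tables give 1 line per intron and condition, with the samples of a condition added together. Each condition is therefore 1 pool with no spread between replicates, and the tests compare 2 pools rather than 2 conditions.

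The membrane skeleton is a mesh of spectrin tetramers joined at short actin filaments under the lipid bilayer, and it lets the red cell deform and spring back. Ankyrin and protein 4.2 tie the mesh to the anion exchanger band 3, and protein 4.1 strengthens the joints between spectrin and actin. Adducin and tropomodulin cap opposite ends of the actin filaments, and loss of several of these proteins causes inherited anaemias with fragile or misshapen cells. The Epb41 transcript is known for exons that are spliced differently as erythroid cells mature.

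The first measure is the splicing efficiency (coSE), the reads spliced at an intron divided by spliced plus unspliced reads. The second is NIC, the fraction of splicing intermediates, which is intermediates divided by intermediates plus spliced reads. An intermediate is taken to be a transcript that has passed the first step of splicing, with the upstream exon released and its ligation still to come. Intervals are 95% Wilson intervals unless another kind is named. They cover counting error only, since the libraries were amplified by PCR and the use of molecular identifiers in counting is not given in the sources used here. One long read can span several introns, so introns of a gene share molecules and are not replicates of each other.

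The splice sites of the introns on which the results turn are shown first. The 5' site is given as 3 exon bases followed by 6 intron bases, and capitals mark bases that differ from aaggtaagt, the commonest base at each position over the 6537 introns. Only 0.795% of those introns carry that exact sequence, and 0 of the 69 membrane skeleton introns do. The 5' sites below belong to introns with low splicing, with many intermediates, or with a low site score and nearly complete splicing, and Tmod1 intron 3, fully spliced after induction, is given beside them.
Ank1 intron 11, 5' site: GaggtaGgA
Ank1 intron 16, 5' site: TGggtaagG
Ank1 intron 23, 5' site: aGTgtaagA
Ank1 intron 32, 5' site: aaggtGCTG
Ank1 intron 34, 5' site: TGggtaGgA
Ank1 intron 36, 5' site: aGAgtCagt
Sptb intron 10, 5' site: aGggtaCTG
Sptb intron 11, 5' site: CaggtaaCG
Sptb intron 18, 5' site: GaggtGagG
Rhag intron 6, 5' site: aGTgtaTgt
Epb42 intron 7, 5' site: CTggtGagA
Tmod1 intron 3, 5' site: CaggtaagA

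The matching 3' sites are given as the last 20 bases of the intron and the first 3 of the next exon, with the terminal AG of the intron in capitals.
Ank1 intron 11, 3' site: agcacactcatctcttctAGtct
Ank1 intron 16, 3' site: ggtacctccttttgtttcAGaat
Ank1 intron 23, 3' site: ctcattttcctgcttcatAGggt
Ank1 intron 32, 3' site: gctccctgtgtgtaacctAGgtg
Ank1 intron 34, 3' site: aacccaatgcatctctccAGgtt
Ank1 intron 36, 3' site: cctttcttctctccggacAGtgg
Sptb intron 10, 3' site: gaattctctgcctcatgcAGgcc
Sptb intron 11, 3' site: tttttccctcttgggggcAGgat
Sptb intron 18, 3' site: ctcactctttctgctcacAGctc
Rhag intron 6, 3' site: cctctcttttacaaccatAGcca
Epb42 intron 7, 3' site: tttgcctttgctacttctAGggt
Tmod1 intron 3, 3' site: acctccctttgtccccacAGcta

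All 69 introns with a tabulated sequence began with GT and ended with AG. The last exon base was G in 59 of them, or 85.5%, beside 80.2% over all introns of that table. Their 5' sites had a median score of 8.94, beside 8.78 over all introns, and their 3' sites a median of 8.72 beside 8.70. The score is the authors' own and rises with likeness to a strong site. The 140 introns had a median length of 1039 bases, beside 1226 over all introns, and ranged from 84 bases in Ank1 intron 25 to 67758 bases in Epb41 intron 1. Median GC content was 48.1%, beside 43.9% over all introns of the table.

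The pools held 416379 intron reads before induction and 279371 after it, a ratio of 1.49. Membrane skeleton introns took 876 of the first, or 0.21%, and 4488 of the second, or 1.61%. Reads were listed for 107 of the 140 introns in the uninduced pool and for 139 in the induced pool, although 2 introns had no read in either pool. At least 10 reads were present at 32 introns of 3 genes before induction and at 86 introns of 7 genes after it. Erythroid identity was checked with 10 marker genes, all listed, whose summed reads were 717 and 8418. Of the 9 with enough reads, 7 had more than doubled their share, beside 18.8% of all genes compared. Gata1 and Klf1 had not, with ratios of 1.71 and 1.82, and Tal1 had too few reads. Of 9 markers of other blood cells, 4 were listed, with summed reads of 211 and 212. Csf1r, Mpo, Elane and Cd3e were not listed in either pool. Spi1 and Ptprc had reads only before induction, Pf4 had a median of 40 and then 5 reads per intron, and Itga2b had 13 and then 101. The part of the other cell type markers in the results below was not tested.

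The spectrin, ankyrin and anchoring genes took a larger share of nascent reads after induction, whereas Add1 did not. The level used is the median number of reads per intron of a gene, set against all intron reads of its pool. A gene was compared when this median reached 3 reads in at least 1 pool, which 7 of the 8 genes did. In these bulk pools, more cells carrying a transcript and more nascent RNA per cell cannot be told apart. No test was possible with 1 pool per group. The deepest intron named for a gene is one with the most reads over both pools. In genes with more induced reads this choice favours a higher ratio, and the interval does not cover it.

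Sptb, the beta chain of the spectrin mesh (chromosome 12, 76580488 to 76710547, minus strand, mm10), had a median of 3 reads per intron before induction and 26 after it. Its introns held 0 to 7 reads in the first pool and 1 to 41 in the second, a 12.9-fold larger share. Its deepest, intron 4, held 5 and 41 reads, a 12.2-fold larger share with an exact 95% interval of 4.83 to 39.6. Ank1, which fastens spectrin to band 3 (chromosome 8, 23035099 to 23148790, plus strand), had a median of 5 and 62 reads, an 18.5-fold larger share. Ank1 intron 2, its deepest, held 23 and 209 reads, a ratio of 13.5 with an interval of 8.79 to 21.8.

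Epb42, which binds both ankyrin and band 3 (chromosome 2, 121017891 to 121037072, minus strand), had no read at any of its 12 introns before induction. After induction its introns held 3 to 36 reads with a median of 18. Taking 3 reads per intron as the floor for a count of 0, its share was at least 8.94-fold higher. Its first intron went from 0 to 36 reads, and the exact interval of that ratio starts at 13.8. That intron had the most induced reads of the 12, a choice the interval does not cover. Rhag, the membrane glycoprotein that carries ammonia and sits beside the Rh proteins (chromosome 17, 40811126 to 40840754, plus strand), was already read before induction. Its median was 23 and then 34 reads per intron, a share 2.20 times larger. Rhag intron 1 held 38 and 43 reads, a ratio of 1.69 with an interval of 1.06 to 2.68. Summed over its introns Rhag gave 1.76, so its place past 2-fold rests on the use of the median.

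Among the genes acting at the actin joints, Epb41 (chromosome 4, 131923413 to 132075321, minus strand) had a median of 2 and 10 reads, a 7.45-fold larger share. Its deepest intron, number 2, held 6 and 18 reads, a ratio of 4.47 with an interval of 1.70 to 13.8, and with the deepest intron of each pool the ratio was 3.83. Tmod1, the cap of the slow-growing filament end (chromosome 4, 46039209 to 46090897, plus strand), had a median of 3 and 21 reads, a 10.4-fold larger share. Its intron 3 held 3 and 30 reads, and its first intron had no read in either pool. Dmtn, which bundles actin (chromosome 14, 70603623 to 70635978, minus strand), was listed at 8 of its 14 introns, with no read before induction and 1 to 5 after it. Its median of 2 reads was under the floor, so no fold is given, and its deepest intron, number 5, held 0 and 5 reads.

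Add1, the cap of the fast-growing filament end (chromosome 5, 34573664 to 34632308, plus strand), had the opposite order of medians, with 12 reads per intron before induction and 5 after it. Its share after induction was 0.621 of that before. Add1 intron 6, the deepest after induction, held 12 and 10 reads, which is a ratio of 1.24 once the depth of the pools is counted, with an interval of 0.481 to 3.14. Intron 2, with 17 and 5 reads, had the same total over both pools, so the ratio of a single intron depends on which of them is used. The ratio was 0.793 with the reads of all introns summed and 0.877 with the deepest intron of each pool.

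Of the 7 genes compared, 6 had a share more than 2-fold higher after induction and 0 had one more than 2-fold lower. Epb41 and Epb42 reached 3 reads only in the induced pool, where they are high, so the minimum itself favours a ratio above 1 for them and the count is a description. Over all 4183 genes compared in the same way, 18.8% were past 2-fold higher and 27.5% past 2-fold lower. The median ratio was 8.94 over the 7 genes, with Epb42 at its bound, and 0.994 over all genes. The plot of read share ratios places each gene against that whole distribution.

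**Figure D1:**
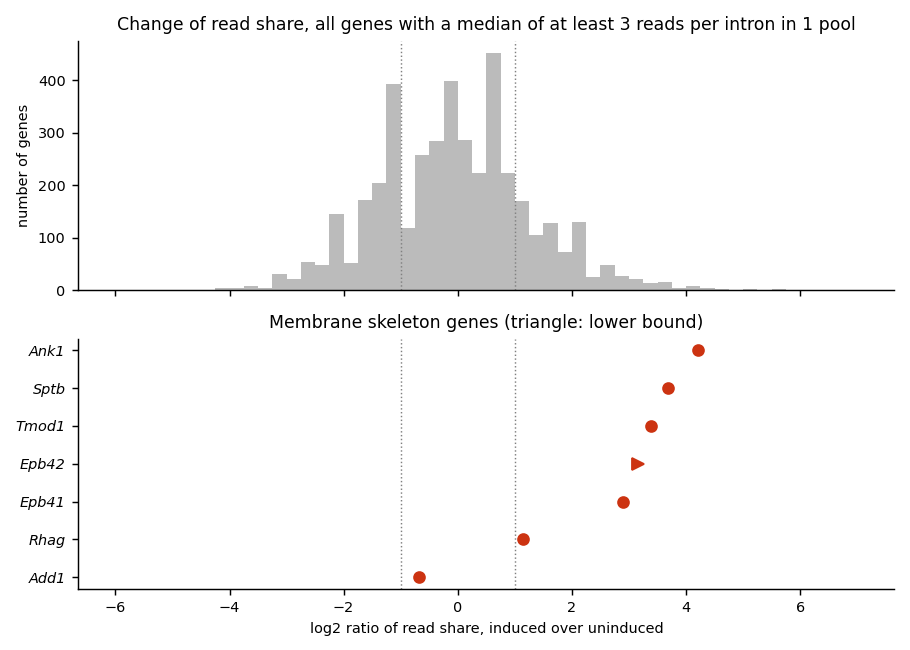
Ratio of read share, induced over uninduced, on a log2 axis; the grey histogram counts all 4183 genes compared, points are the 7 membrane skeleton genes with enough reads and the triangle is a lower bound. Dotted lines mark a 2-fold change, and Ank1, Sptb, Tmod1, Epb42, Epb41 and Rhag lie above the upper line while Add1 lies between the lines at 0.621-fold.

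A fixed list of 29 other red cell membrane genes gives the setting. Of these, 27 were listed and 18 had enough reads, of which 12 were past 2-fold higher, 1 was past 2-fold lower and 5 were neither. Slc4a1, which encodes band 3, had no read before induction and a median of 42 after it, at least 20.9-fold higher. Add2, the beta partner of Add1, had a median of 13 and 7 reads, a ratio of 0.803. Add3, the gamma adducin, had 6 and 1 reads, a ratio of 0.248, and was the gene past 2-fold lower. By the median, all 3 adducin genes had a smaller read share after induction.

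Reads thinned out from the 5' to the 3' end in most of these genes. In the induced pool the Spearman correlation of reads with intron number was -0.923 over the 42 introns of Ank1, -0.975 over 12 of Epb42, -0.875 over 17 of Epb41, -0.776 over 34 of Sptb and -1 over 9 of Rhag. It was -0.273 over the 15 introns of Add1. These values are descriptions, because neighbouring introns are covered by the same reads. Rhag intron 1 held 43 induced reads and intron 9 held 10, while in the uninduced pool the same introns held 38 and 15. In Sptb the depth fell from 24 induced reads at intron 19 to 1 at intron 23 and was 15 again at intron 28.

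Ank1 did not thin out evenly. Introns 1 to 23 held 59 to 209 induced reads with a median of 112, and introns 24 to 42 held 0 to 22 with a median of 9. The break lay between intron 23 (23111457 to 23111809), which had 61 reads, and intron 24 (23111889 to 23113763), which had 9. In the uninduced pool the same introns had 5 reads and 1 read, and the blocks before and after the break held 5 to 23 and 0 to 5 reads. Depth rose again inside the second block, to 22 reads at intron 32. None of the 17 annotated Ank1 transcripts starts or ends between the start of intron 23 and the end of intron 24, and all 12 transcripts that span each of these introns contain it.

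**Figure D2:**
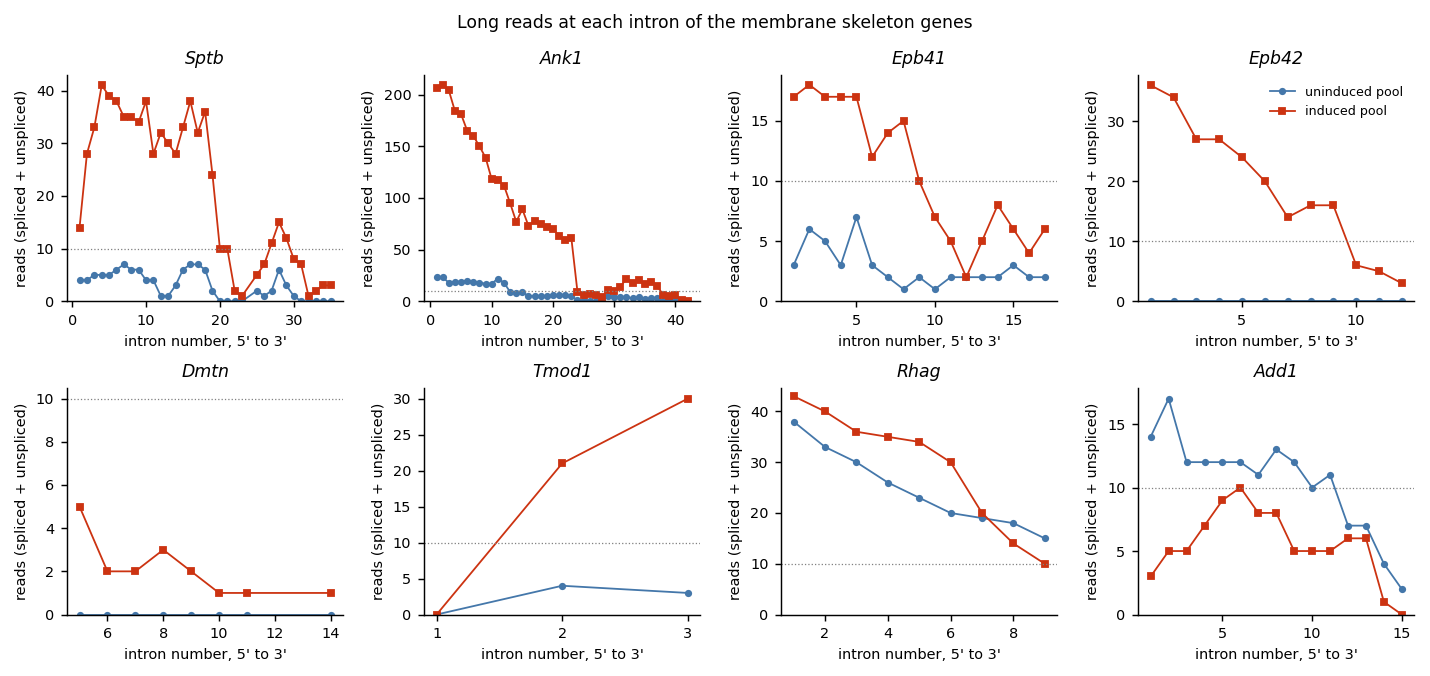
Reads (spliced plus unspliced) at each listed intron of the 8 genes, numbered from the 5' end, in the uninduced pool (blue circles) and the induced pool (red squares); the dotted line marks 10 reads and each panel has its own vertical scale. Induced reads fall along Ank1 from 209 at intron 2 to 61 at intron 23 and 9 at intron 24, Epb42 has no uninduced read, and the uninduced pool lies above the induced one along Add1. Reads are not corrected for depth, and the uninduced pool held 1.49 times as many intron reads.

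Splicing of these introns was mostly complete on nascent RNA. Before induction the 32 introns with at least 10 reads had a median coSE of 0.963, beside 0.933 over all 9982 such introns. After induction the 86 introns had a median of 0.946, beside 0.947 over all 6333. Every read was spliced at 15 of the 32 introns (46.9%, with 37.0% over all introns), and at 19 of the 86 (22.1%, with 43.1% over all). The depths differ, since the 86 introns had a median of 31 induced reads and all introns 15, and the part of depth in these shares was not tested. Splicing under 0.8 was less common than over all introns in both pools, at 3 of 32 introns (9.38%, with 22.8% over all) and 12 of 86 (14.0%, with 21.8% over all). These shares were not tested, because introns of a gene share reads.

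By the median of each gene, the anchoring genes were spliced nearly to completion. Ank1 had a median coSE of 0.952 over 12 introns before induction and 0.9497 over 32 after it. Epb42 had 0.938 over 9 introns after induction, and its lowest, intron 7 (121026800 to 121027081, 282 bases), had 12 of 14 reads spliced. Rhag had 1 and 0.972 over the same 9 introns, so its medians lay close to each other despite the lower values of its later introns. With its reads added together, 217 of 222 were spliced before induction and 237 of 262 after it. Both Tmod1 introns with enough reads were fully spliced, with 21 of 21 and 30 of 30 reads. Sptb had 0.926 over 24 introns after induction.

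A lower median was found in Epb41, at 0.824 over 9 introns after induction. With a minimum of 5 reads it was 0.917 over 15 introns, beside 0.938 over 28 in Sptb. The lowest Epb41 intron with at least 10 reads, number 8 (131978963 to 131982452), had 10 of 15 spliced, a coSE of 0.667 with an interval of 0.417 to 0.848. Introns 5 and 7 followed with 12 of 17 and 11 of 14 reads. Dmtn had no intron with 10 reads, and 12 of its 17 induced intron reads were spliced in all. Add1 was deep enough mainly before induction, with a median of 0.929 over 11 introns. Its lowest was intron 10 (34616815 to 34619349), with 4 of 10 reads spliced before induction, a coSE of 0.400 with an interval of 0.168 to 0.687, and 4 of 5 after it. That intron lies before exon 11, which 1 of the 8 annotated transcripts spanning it leaves out, and 5 of 8 transcripts that span the intron contain it. The intron on the other side of exon 11 had 9 of 11 reads spliced before induction.

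The 12 introns under 0.8 after induction lay in Sptb, Ank1, Epb41 and Rhag. In Ank1 all 4 of them lay after the break in depth. Intron 34 (23120614 to 23120899, 286 bases) had 9 of 21 reads spliced, a coSE of 0.429 with an interval of 0.245 to 0.635, and all 4 of its uninduced reads were unspliced. Intron 32 (23119188 to 23119313, 126 bases) had 14 of 22, intron 31 had 10 of 14 and intron 36 had 15 of 19. In the uninduced pool the reads of these last 3 introns, 4, 4 and 3 in number, were all spliced. Intron 33, between intron 32 and intron 34, had 15 of 18 induced reads spliced, so low and higher values alternated along the transcript.

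Over introns with at least 10 reads, the blocks of Ank1 before and after the break also differed. In introns 1 to 23, 2662 of 2757 induced reads were spliced, with a median coSE of 0.973 and a range of 0.880 to 1. In the 9 introns after the break with at least 10 reads, 111 of 147 were spliced, with a median of 0.824 and a range of 0.429 to 1. That minimum leaves out introns 24 to 28, directly after the break. Of their reads, 7 of 9, 6 of 6, 7 of 7, 6 of 6 and 4 of 4 were spliced. Introns 29 and 30 had 10 of 11 and 10 of 10. The lower values came further along, from intron 31 to intron 36. Intron 38, also left out, had 3 of 6. The break was chosen after the values were seen, so no test is given, and the same molecules are counted at several of these introns.

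In Sptb, intron 18 (76610891 to 76611812) had 25 of 36 reads spliced, a coSE of 0.694 with an interval of 0.531 to 0.820. Intron 10 (76624386 to 76624995) had 27 of 38, a coSE of 0.711 with an interval of 0.552 to 0.830. Their neighbours had larger spliced fractions, with 34 of 34 reads at intron 9, 25 of 28 at intron 11, 31 of 32 at intron 17 and 21 of 24 at intron 19. Sptb intron 21 had 7 of 10. In Rhag the low introns were number 6, with 20 of 30 reads, and number 7, with 15 of 20.

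**Figure D3:**
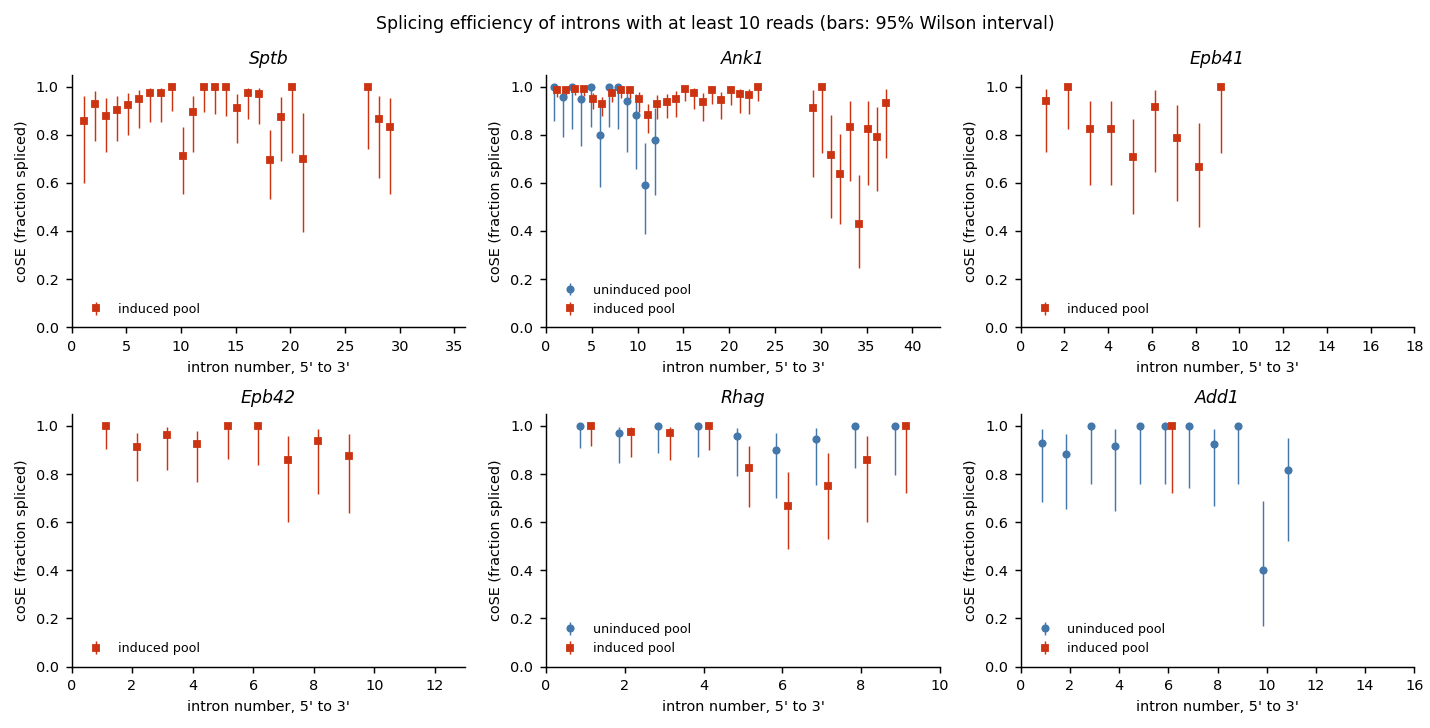
Splicing efficiency (coSE, spliced reads over all reads) of each intron with at least 10 reads in a pool, for 6 genes, with 95% Wilson intervals; blue circles are the uninduced and red squares the induced pool. Ank1 introns 1 to 23 lie between 0.880 and 1 after induction, Ank1 intron 34 lies at 0.429, and Rhag introns 6 and 7 lie at 0.667 and 0.750.

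The low values were set beside the splice site scores, which were tabulated for 67 of the 86 introns. Of the 12 introns under 0.8, only 7 had a score. The 5 without one were Sptb intron 21, Ank1 intron 31 and Epb41 introns 5, 7 and 8. Among 7 introns with a 5' score under 5, 4 had a coSE under 0.8 and the median was 0.789. Among 14 introns scoring 5 to 8 the median was 0.977 and 2 were under 0.8. Among 46 introns scoring 8 or more it was 0.965 and 1 was under 0.8. Over all introns the medians were 0.923 for 307 introns, 0.938 for 1122 and 0.952 for 2754, and 99, 280 and 549 of these were under 0.8. The bounds of 5 and 8 were chosen after the values were seen.

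The sequences printed above show these cases. Ank1 intron 36 had the lowest 5' score of the set, -0.66, and differs from the commonest site at 3 of 9 positions, among them the last exon base. Ank1 intron 32, with a score of 4.05, matches the commonest site up to the GT and differs at 4 positions after it. Sptb intron 10 scored 4.50 and Rhag intron 6 scored 4.80. A low score did not always go with low splicing. Ank1 intron 23 scored 4.57 and had 61 of 61 reads spliced, and Sptb introns 5 and 15, at 4.51 and 4.41, had 36 of 39 and 30 of 33. Sptb intron 18 went the other way, with a 5' score of 8.41 and a coSE of 0.694.

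Across the 67 introns the Spearman correlation of induced coSE was 0.220 with the 5' score and 0.253 with the 3' score, beside 0.0583 and 0.0822 over all 4183 introns with a score. With intron length it was 0.0287 over the 86 introns and 0.383 over all 6333. These are descriptions over introns that share reads, genes and depth. Sptb intron 3 had the lowest 3' score of the set, 1.31, and 29 of its 33 reads were spliced.

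**Figure D4:**
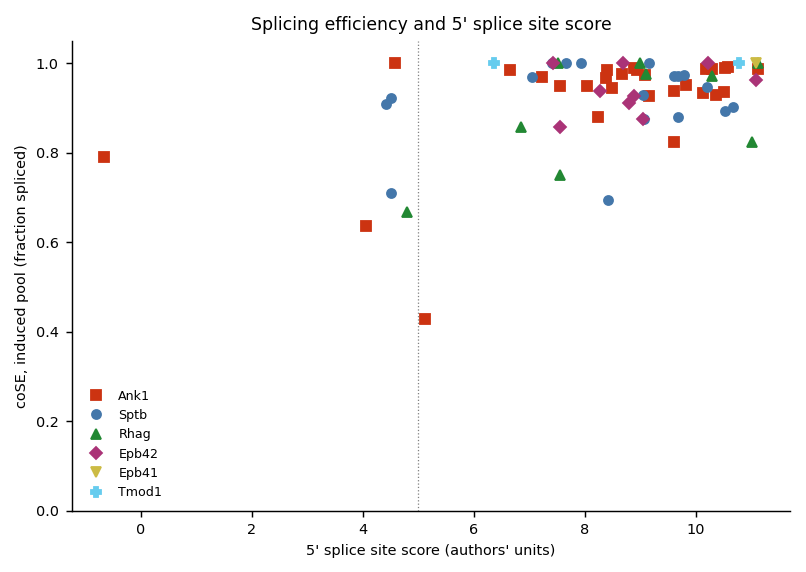
Splicing efficiency in the induced pool against the authors' 5' splice site score for the 67 introns with at least 10 induced reads and a score, with 1 symbol per gene; the dotted line marks a score of 5. Of 7 introns left of the line, 4 lie under 0.8 (99 of 307 over all introns), and Ank1 intron 34, just right of it at 5.12, is the lowest point at 0.429.

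Whether splicing efficiency differed between the pools could be asked of 22 introns with at least 10 reads in both, 12 of Ank1, 9 of Rhag and 1 of Add1. Two-sided Fisher's exact tests with Benjamini-Hochberg adjustment over all 4403 such introns called 0 of the 22, with 1.61% called over all introns in either direction and 1.25% called lower after induction. An unadjusted p under 0.05 was reached by 1 of the 22, with 7.97% over all introns. The coSE was higher after induction at 8 introns (42.7% over all introns), lower at 10 (34.8% over all) and equal at 4 (22.5% over all). A p that misses the threshold does not show that the pools were alike, and at 12 to 38 uninduced reads per intron small differences were not detectable.

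The smallest p belonged to Ank1 intron 11 (chromosome 8, 23095311 to 23096097, 787 bases), an intron between coding exons that all 11 annotated transcripts spanning it contain. Before induction 13 of 22 reads were spliced, a coSE of 0.591 with an interval of 0.387 to 0.767. After it 103 of 117 were spliced, a coSE of 0.880 with an interval of 0.809 to 0.927. The difference was 0.289 with an unadjusted exact p of 0.00251 and an adjusted p of 0.117. Over the alternatives tried the adjusted p ran from 0.0376 with a chi-square test to 0.977 with no read minimum, and with a minimum of 20 reads it was 0.0490. Of the 12 Ank1 introns with at least 10 uninduced reads, intron 11 had the lowest coSE before induction, and it had the lowest of introns 1 to 23 after it.

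Ank1 intron 12 had 14 of 18 and 104 of 112 reads spliced (adjusted exact p = 0.702), and Ank1 intron 6 had 16 of 20 and 153 of 165 (adjusted exact p = 0.774). Over the 12 Ank1 introns, 7 were higher after induction and 5 lower, with a median difference of 0.0354. Rhag went largely the other way, with 1 intron higher, 5 lower and 3 equal, and a median difference of -0.0278. Rhag intron 6 had 18 of 20 reads spliced before induction and 20 of 30 after it (unadjusted exact p = 0.0915, adjusted 0.822). Its introns 7 and 8 had 18 of 19 and 15 of 20, and 18 of 18 and 12 of 14. The 3 are neighbours and share reads, and the difference between Ank1 and Rhag was not tested. Add1 intron 6 was fully spliced in both pools, with 12 of 12 and 10 of 10 reads.

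Splicing intermediates were seen in Sptb, Ank1, Epb42, Tmod1 and Rhag, with at least 1 at 11 of 18 Sptb introns, 18 of 28 in Ank1, 3 of 9 in Epb42, 1 of 2 in Tmod1 and 5 of 7 in Rhag after induction. In all, 38 of 65 tabulated introns of the induced pool had an intermediate (58.5%, with 37.8% over all introns), and in the uninduced pool 10 of 23 did (43.5%, with 36.2% over all). The reads behind a value were more numerous here, with a median of 31 induced reads per intron and 14 over all introns, and the part of depth was not tested. Reads added together, NIC was 4.60% before induction (15 of 326) and 3.98% after it (142 of 3571), beside 2.71% and 4.35% over all introns. These sums hold different introns, since Rhag gave 11 of the 15 uninduced intermediates and Ank1 102 of the 142 induced ones. At the 12 Ank1 introns tabulated in both pools NIC was 2.60% before induction (4 of 154) and 3.56% after it (67 of 1880). At the 7 such introns of Rhag it was 7.81% (10 of 128) and 6.70% (13 of 194).

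The highest induced values were spread over the anchoring genes and Sptb. Sptb intron 11 (76623212 to 76624226) had 7 intermediates of 31 reads, a NIC of 0.226 with an interval of 0.114 to 0.398. Its 5' site scores 10.52, and 25 of the 28 reads at this intron were spliced in the other table. Each other Sptb intron in this table had 0 to 2 intermediates. Ank1 intron 16 (23099697 to 23104789) had 12 of 69, a NIC of 0.174 with an interval of 0.102 to 0.280. Ank1 introns 15 and 17 on either side had 0 of 81 and 0 of 68, and Ank1 intron 1 had 0 of 196. Intermediates therefore differed between neighbouring introns of the same transcript while coSE there was 0.936 to 0.989.

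Epb42 intron 7 had 3 intermediates of 12 reads, a NIC of 0.250 with an interval of 0.0889 to 0.532, and was also the Epb42 intron with the lowest coSE. Rhag introns 5, 6 and 7 had 4 of 29, 3 of 15 and 2 of 12 after induction. Before it they had 1 of 15, 2 of 14 and 0 of 13. Rhag intron 6 therefore had among the highest NIC values in both pools, and low splicing after induction. The highest uninduced value, 0.143, was shared by Ank1 intron 9 and Rhag intron 6, each with 2 of 14. Tmod1 intron 3 had 2 of 31 and Epb41 intron 2 had 0 of 11. The Add1 introns listed, 8 and 9, had 0 of 10 each before induction.

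**Figure D5:**
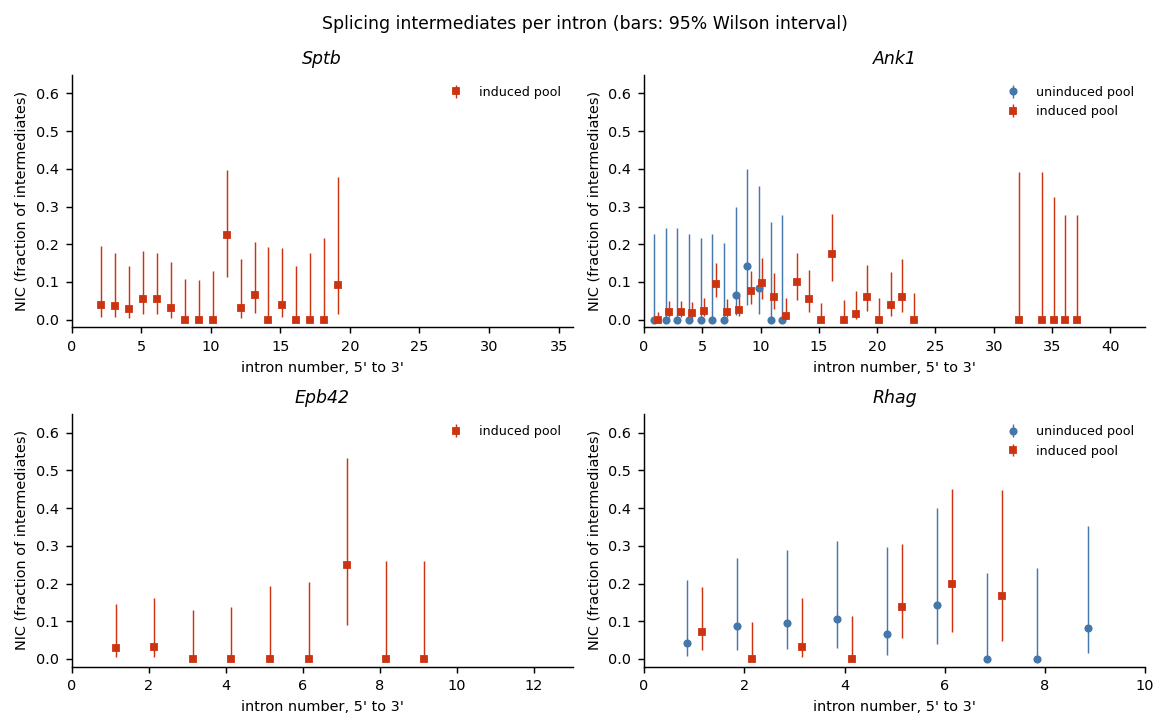
Fraction of splicing intermediates (NIC) at each tabulated intron of 4 genes with 95% Wilson intervals; blue circles are the uninduced and red squares the induced pool. Sptb intron 11 at 0.226 and Ank1 intron 16 at 0.174 stand above their neighbours, and Epb42 intron 7 at 0.250 rests on 12 reads.

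Between the pools, NIC could be compared at 12 introns of Ank1 and 7 of Rhag. Two-sided Fisher's exact tests adjusted over all 2039 introns listed in both pools called 0 of the 19, with 0.0981% called over all introns. An unadjusted p under 0.05 was reached by 0 of the 19, with 1.67% over all introns, and a chi-square test also called 0. The smallest unadjusted exact p was 0.145, at Rhag intron 4, with 2 of 19 intermediates before induction and 0 of 30 after it. NIC was higher after induction at 13 introns (26.9% over all introns), lower at 5 (27.4% over all) and equal at 1 (45.7% over all), on 10 to 23 uninduced reads per intron. The depths were unequal: 8 of the 9 higher Ank1 introns had 0 intermediates among 10 to 15 uninduced reads and were read 96 to 203 times after induction. The count of directions is therefore not a measure of change.

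Some annotated transcripts leave out or add exons in these genes. Epb41 introns 1, 2, 12 and 13 enclose 1, 2, 3 and 1 further annotated exons that other transcripts use. Introns 1 and 2 had 16 of 17 and 18 of 18 reads spliced after induction. Epb41 exon 4 is left out by 1 of 12 transcripts spanning it, and the introns on its sides each had 14 of 17. Intron 12 was thinly read and had 2 of 2 reads spliced in each pool, and intron 13 had 1 of 2 before induction and 2 of 5 after it. In Epb42, exon 2 (121034413 to 121034598, 186 bases) is left out by 1 of 4 transcripts spanning it, and the introns on its sides had 36 of 36 and 31 of 34 reads spliced after induction. In Rhag, exon 2 is left out by 1 of 3, with 43 of 43 and 39 of 40 reads spliced beside it. Of the 140 introns, 104 are contained in every annotated transcript that spans them, and whether unspliced reads at the other 36 came from transcripts without the tabulated intron was not tested.

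The genes whose pattern lay nearest to the median of the list were found among 352 genes with at least 5 introns of 10 reads in both pools. Likeness was the distance over the log2 ratio of read share and the median coSE in each pool, each scaled by its SD over genes. Among the 5 nearest were Tfrc, Tmbim6 and Araf, at distances of 0.450, 0.938 and 1.01. Tfrc, the transferrin receptor, had an 11.7-fold larger share and a median coSE of 0.927 and 0.972. Tmbim6 had a 4.79-fold larger share and a median coSE of 1 and 0.942, and Araf, a kinase of the RAF family, a 4.97-fold larger share and a median coSE of 0.917 and 0.879. Of the other red cell membrane genes, 84 introns of 8 genes could be tested for coSE and 50 introns for NIC, and 0 were called in either, with 1.61% and 0.0981% called over all introns.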

How the data were processed

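Long-read nascent RNA samples of uninduced and induced MEL cells were used (4 and 4), pooled by the authors; the other 12 samples, from cells with a human beta-globin gene and from PRO-seq, were not analysed here. The deposited tables hold, per the file headers, raw read counts per intron (spliced, unspliced, intermediates), NIC as a deposited fraction, GC content as a percent and, for either splice site, a score set by the authors. The submitters' processing notes name cutadapt, minimap2, SAMtools, bedtools and Bowtie and the builds mm10 and dm3, with no role given; how unspliced reads and intermediates were recognised is not given in the sources used here. The deposited other values, the unspliced and intermediate reads, were used as whole numbers. The conditions named in the tables were assigned to the long-read groups since both tables report on long-read splicing.

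Positions were matched to GENCODE mouse release 21 (GRCm38) by adding 2 to the start and taking 1 from the end, which placed 100% of the members' introns on annotated introns; these 1-based positions are printed. Sequences are the authors' tabulated splice sites. coSE and Wilson intervals were computed for introns with at least 10 reads. Changes were tested with two-sided Fisher's exact tests, Benjamini-Hochberg adjusted over all introns tested, with a threshold of 0.05. Ratios of single introns have exact conditional binomial intervals. Python 3.11.15, SciPy 1.17.1, pandas 2.3.3 and NumPy 2.4.6 were used, and the scripts were tested on simulated data.

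Alternatives were other read minimums, a chi-square test, a thinned uninduced pool, and other summaries and totals for read shares. Named introns were, per gene, the 3 smallest p-values of the coSE test, the lowest coSE, the highest NIC, the deepest intron and introns beside exons left out of some transcripts; further introns named beside these were chosen after their values were seen. The genes and lists were chosen with earlier results of these data known. Values of some genes on the lists are not reported here.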

Additional observations from a re-analysis of the deposited data

How the results depend on the processing

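No paired analysis was possible because the tables give 1 pooled line per intron and condition; for the same reason no replicate could be left out. The number of membrane skeleton introns called for coSE was 0 with the Fisher test at 10 reads, 1 of 10 tested with a minimum of 20 reads (68 of 1330 over all introns) and 1 of 22 with the chi-square test (99 of 4403 over all introns), in both cases Ank1 intron 11. Over all introns 71 were called, and 36 of 42074 with no read minimum. The other 27 values that answer a comparison did not change direction or call, and their counts moved by at most 1.5 times, as did the introns called for NIC over all introns, from 2 to 3 with the chi-square test. Of the values of single genes or introns under an alternative, 83 kept their direction (coSE differences also their side of the threshold) or, for medians, stayed within the Wilson interval of a share at the median depth, 4 moved, 2 became called and 0 reversed. Among the 83, the size moved by over 1.5 times for Ank1 intron 6, whose coSE difference was 0.127 and 0.0182 with the uninduced pool thinned, and for the Epb41 read share ratio, 7.45 and 3.83 with the deepest intron of each pool. The 4 that moved were the median coSE of Ank1 uninduced with a minimum of 5 reads (1), of Epb42 induced with a minimum of 20 (0.981), and, with introns contained in every annotated transcript that spans them, of Add1 uninduced (1) and Rhag induced (0.824); this last alternative was chosen after seeing the data. Genes past 2-fold numbered 5 instead of 6 with summed reads or the deepest intron, because the Rhag ratio, counted among the 83, fell under 2-fold, to 1.76 and 1.69. Depth limits the rest: 54 of 140 introns had under 10 induced reads.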
